A study of Homo sapiens with 3 samples.

Results

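Genes of interleukin-1 (IL-1) signalling and pyroptosis, a lytic form of cell death, were followed through RNA sequencing libraries of Caco-2 cells. There were 9 such genes, and 6 of the 9 were detected above a low-count filter. They were picked by name, as members of the IL-1 cytokine family, the inflammatory caspases with their adaptor, and the gasdermins, out of 60664 gene identifiers in the deposited count table. The 3 groups held 1 library each. Cells given DSS+polydatin received 30 µM polydatin for 2 h and then polydatin together with 3% dextran sulfate sodium (DSS) for 8 h. Cells given DSS alone received 3% DSS for 8 h, and control cells received neither. All 3 libraries came from the same wild-type line, which is a colon carcinoma line that forms an enterocyte-like epithelium in culture. No immune or stromal cells were part of the model. DSS, a sulfated glucose polymer, injures the gut lining of rodents in models of colitis. Polydatin is the glucoside of the stilbene resveratrol.

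IL-1α and IL-1β (genes IL1A and IL1B) bind the same receptor and start inflammatory signalling through MyD88, and IL-1 receptor antagonist (IL1RN) blocks that receptor. In inflammasomes, sensor proteins recruit the adaptor ASC (PYCARD), which brings in caspase-1 (CASP1), the enzyme that matures IL-1β and IL-18 and cuts gasdermin D (GSDMD) to open pores in the plasma membrane. Caspase-4 (CASP4) senses cytosolic lipopolysaccharide directly and cuts gasdermin D without an inflammasome sensor. Intestinal epithelial cells are a known source of IL-18, and gasdermin B (GSDMB) is known for its expression in mucosal epithelia.

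Library totals were 16667622 counts for DSS+polydatin, 18825914 for DSS and 18695613 for control. Levels are given as CPM, counts per 1000000 library counts, after scaling by trimmed-mean-of-M (TMM) factors, and a gene was called measured at a CPM of at least 1 in at least 1 library, which 14792 genes reached. There are no replicates, so no test of the conditions was possible, and every ratio compares libraries. Intervals in parentheses are 95% exact intervals that cover counting error only. A gene was called apart at a ratio of at least 1.5-fold either way with an interval that excluded 1. The 3 comparisons share libraries and are therefore not independent of each other. In RNA from bulk cultures, fewer cells expressing a gene and less RNA of it per cell cannot be told apart.

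The cells carried an epithelial profile. Summed over 13 epithelial marker genes the level was 7588 CPM in DSS+polydatin, 9288 CPM in DSS and 7608 CPM in control, with CDX1 at 0 counts throughout. Within that list the tight-junction gene CLDN4 had 301, 207 and 81.6 CPM and the transcription factor gene CDX2 had 78.3, 118 and 147 CPM in DSS+polydatin, DSS and control. CLDN3, another tight-junction gene, had 233, 159 and 38 counts and LGALS4, a galectin gene, had 25, 10 and 4. LGALS4 met the CPM filter only through DSS+polydatin. The most abundant of the list, KRT8 and KRT18, had 2815, 3600 and 2970 CPM and 1725, 2308 and 1872 CPM. Of 11 measured epithelial markers 2 were called higher and 1 lower in DSS+polydatin against DSS (median log2 ratio −0.27). In DSS against control 2 were higher and 0 lower, and in DSS+polydatin against control 3 higher and 1 lower. Of 12 monocyte and macrophage markers 4 had 0 counts in every library, among them PTPRC (the pan-leukocyte gene CD45), TYROBP and SPI1, and the list summed to 16.9 CPM in DSS+polydatin, 16.5 CPM in DSS and 10.5 CPM in control. Within it CD163 had 60, 27 and 13 counts and CSF1R had 84, 44 and 39 counts in DSS+polydatin, DSS and control, whereas LYZ had 39, 83 and 14, AIF1 had 27, 51 and 52 and CD14 had 41, 64 and 47. In DSS+polydatin against DSS, 2 of the 6 measured genes of the list were called higher and 2, LYZ and AIF1, lower. In DSS against control 2, LYZ and CD163, were higher and 0 lower. In DSS+polydatin against control 4 were higher and 1 lower. Over all measured genes 5.39%, 9.45% and 16.0% were called higher in the same order. The shares called lower were 2.60%, 5.81% and 12.4%. LYZ and CD163 were under 1 CPM in control and met the filter only outside it. What these marker differences contribute to the results was not tested. The 7 neutrophil markers summed to 0.803, 0.486 and 0.441 CPM in the same order and the 6 T and B cell markers to 0.516, 0.108 and 0 CPM. The most abundant of these, CSF3R, S100A9, CD3E and CD3D, had at most 7 counts in any library. The 8 fibroblast and endothelial markers summed to 64.0, 61.2 and 74.1 CPM, with none at 0 throughout. COL1A1 made up most of that, at 43.3, 37.8 and 39.7 CPM, and was not called in any comparison. COL3A1 had 27, 35 and 35 counts, while COL1A2 had 2, 1 and 0, DCN 3, 1 and 0 and CDH5 2, 3 and 0. Of the endothelial genes, PECAM1 had 166, 297 and 443 counts and VWF had 68, 22 and 9, and the pericyte and fibroblast gene PDGFRB had 93, 74 and 138.

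The 9 genes fell into a well-detected and a scarcely detected set. IL18, CASP4, GSDMB and GSDMD had at least 20 counts in every library. Counts of 5 genes fell under 20 counts in at least 1 library, and those of 4, IL1B, IL1RN, CASP1 and PYCARD, did so in every library. IL1A passed 20 counts only in DSS+polydatin. IL1B met the CPM filter through the DSS+polydatin library alone.

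**Figure D1:**
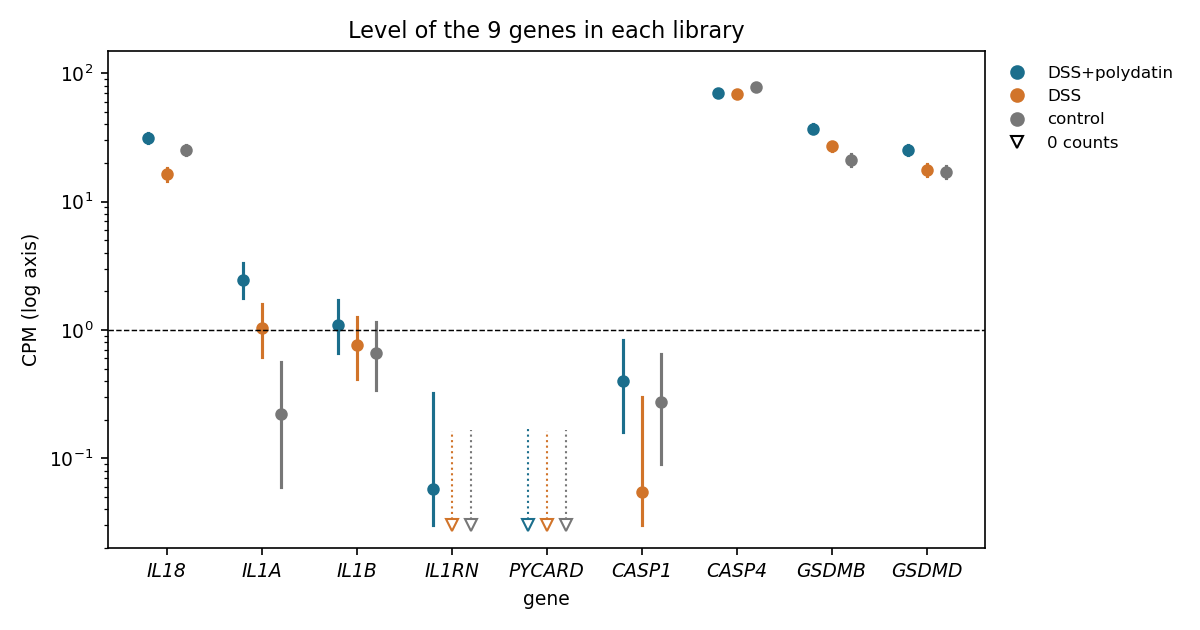
CPM of the 9 genes on a log axis in DSS+polydatin (left of each trio), DSS and control (right of each trio), 1 library per point, with bars for the 95% exact Poisson interval; open triangles mark 0 counts, their dotted line reaches the level of 3 counts, bars reaching lower than the triangles are cut at their height, and the dashed line is a CPM of 1. CASP4 lies highest at 70.3, 68.9 and 78.7 CPM, and PYCARD has 0 counts in all 3 libraries.

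Among the cytokines, IL18 was the most abundant. IL18 (chromosome 11, 112143251 to 112164117, minus strand) had 546 counts in DSS+polydatin, 303 in DSS and 457 in control, which is 31.3 CPM (28.7 to 34.1), 16.4 CPM (14.6 to 18.3) and 25.2 CPM (22.9 to 27.6). The DSS library was thus the low one, and the 3 intervals did not overlap. IL18 was at 0.650 times the control level in DSS (0.560 to 0.753), at 1.91 times the DSS level in DSS+polydatin (1.66 to 2.21) and at 1.24 times the control level in DSS+polydatin (1.10 to 1.41). The first of these lay just past the threshold, and it was 0.731 times, no longer called, once a trend on GC content and transcript length was taken out.

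IL1A, which encodes a cytokine that acts as an alarm signal when released from damaged epithelial cells, was highest in DSS+polydatin and lowest in control. It had 43 counts in DSS+polydatin, 19 in DSS and 4 in control, or 2.47 CPM (1.78 to 3.32), 1.03 CPM (0.617 to 1.60) and 0.220 CPM (0.0600 to 0.564). The DSS+polydatin interval lay clear of DSS and of control, and the DSS interval clear of control, although the counts are small and the ratio intervals wide. The ratio was 4.66 for DSS over control (1.55 to 18.8), 2.40 for DSS+polydatin over DSS (1.37 to 4.37) and 11.2 for DSS+polydatin over control (4.07 to 42.9).

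IL1B, the cytokine that needs caspase-1 for its maturation, differed by no more than counting error. It had 19 counts in DSS+polydatin, 14 in DSS and 12 in control, all with overlapping intervals. Its ratio was 1.14 for DSS over control (0.491 to 2.71), 1.44 for DSS+polydatin over DSS (0.685 to 3.11) and 1.65 for DSS+polydatin over control (0.760 to 3.72). These intervals reach from below 1 to well above 2-fold, so a change of that size was not detectable at this depth. IL1RN had 1 count in DSS+polydatin and 0 in DSS and control, where 3 counts, taken here as the one-sided 95% limit that a count of 0 allows, correspond to 0.162 CPM in DSS and 0.165 CPM in control.

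IL1A, IL1B and IL1RN stand in one cluster on chromosome 2 of GRCh38. IL1A lies at 112773915 to 112784590 on the minus strand, IL1B at 112829751 to 112836903 on the minus strand and IL1RN at 113107214 to 113134016 on the plus strand. The neighbours were named after their values were seen. Next to IL1A, CKAP2L, a mitotic spindle gene, had 37.1 CPM in DSS+polydatin, 39.4 CPM in DSS and 71.0 CPM in control, at 0.555 times control in DSS (0.506 to 0.608). Next to IL1RN, PSD4 had 44.1, 43.3 and 25.9 CPM, at 1.67 times control in DSS (1.49 to 1.87). Genes flanking the cluster were thus well detected and differed between libraries in opposite directions.

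The windows around start sites of IL1A and IL1B are shown because these neighbouring genes, both well known to be inducible, differed in their counts. They come from RefSeq on GRCh38.p14 and run from 250 bases before to 50 bases after a start site, 5′ to 3′ on the gene's strand, at chr2:112784444-112784743 for IL1A and chr2:112836730-112837029 for IL1B. Capitals mark the AP-1 motif TGANTCA, whose reverse complement is the same pattern.
IL1A: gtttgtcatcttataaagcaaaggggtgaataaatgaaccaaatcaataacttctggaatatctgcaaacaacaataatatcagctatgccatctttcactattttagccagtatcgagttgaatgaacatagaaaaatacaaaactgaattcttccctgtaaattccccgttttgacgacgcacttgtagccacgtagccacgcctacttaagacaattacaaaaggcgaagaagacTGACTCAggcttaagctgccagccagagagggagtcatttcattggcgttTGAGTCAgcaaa
IL1B: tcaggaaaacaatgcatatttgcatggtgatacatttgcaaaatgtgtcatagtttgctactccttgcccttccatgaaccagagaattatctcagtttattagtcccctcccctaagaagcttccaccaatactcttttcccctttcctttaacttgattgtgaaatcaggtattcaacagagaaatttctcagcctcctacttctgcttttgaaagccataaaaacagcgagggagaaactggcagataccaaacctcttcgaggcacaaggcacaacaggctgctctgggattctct
The IL1A window held 2 AP-1 motifs, starting at position −12 and position 39 with the start site as position 1, and the IL1B window held 0. RefSeq gives IL1A another start site, whose window overlaps this one and places the same motifs at −105 and −55. Of 35116 windows of this length in the RefSeq table, 7.71% held at least 1 such motif and 0.515% at least 2. A looser κB-like motif, GGGNNNNNCC on either strand, was found in 58.7% of windows and in neither of these. IL1RN, the scarcely detected gene of the cluster with 1, 0 and 0 counts, has RefSeq windows that are not printed here. Its window at chr2:113117721-113118020 held 1 AP-1 motif, at −223, and 4 κB-like motifs. Its other windows held 0 AP-1 motifs and 1 κB-like motif each. A match in letters is a description only, and a missing match says nothing about the factor.

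The caspases split sharply by level. CASP4 had 1225 counts in DSS+polydatin, 1276 in DSS and 1429 in control, or 70.3 CPM (66.4 to 74.3), 68.9 CPM (65.1 to 72.8) and 78.7 CPM (74.7 to 82.9). The DSS+polydatin and DSS libraries overlapped and the control library was slightly higher than both. CASP4 was at 0.875 times control in DSS (0.811 to 0.944), at 1.02 times DSS in DSS+polydatin (0.942 to 1.10) and at 0.893 times control in DSS+polydatin (0.826 to 0.964). None of these reached 1.5-fold, and each interval excluded a difference of that size.

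CASP1, on the same stretch of chromosome 11, was close to undetected. It had 7 counts in DSS+polydatin, 1 in DSS and 5 in control, or 0.401, 0.0540 and 0.275 CPM, which never met the CPM filter. Its ratio of DSS+polydatin over DSS was 7.44 (0.955 to 335) and that of DSS over control 0.196 (0.00414 to 1.75), so both intervals included 1. Reads of CASP1 and of CARD16, a CARD-only gene nearly identical to its first part, may have been split or dropped by the counting. CARD16 had 8, 4 and 8 counts in DSS+polydatin, DSS and control. CASP5, the other human caspase that senses lipopolysaccharide, had 11 counts in each library, and CASP12 had 0 in all. Of this cluster, which runs from CASP4 (104942866 to 104969436) through CASP5 to CASP1 (105025443 to 105035250), CASP4 was the only inflammatory caspase gene that was measured.

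PYCARD, which encodes the ASC adaptor (chromosome 16, 31201485 to 31203450), had 0 counts in DSS+polydatin, DSS and control. With the same limit of 3 counts, a count of 0 allows a level of up to 0.172 CPM in DSS+polydatin, 0.162 CPM in DSS and 0.165 CPM in control. PYCARD shares 991 exonic bases with PYCARD-AS1 on the opposite strand, which had 1, 0 and 0 counts. The strand setting, counting program and annotation behind the table are not known, and whether the count of 0 depends on them was not tested. Its neighbour TRIM72 had 1 count in each library.

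The start-site windows of PYCARD and CASP4 are shown because they belong to the adaptor gene listed at 0 counts and to the most abundant of the 9 genes by CPM. They are RefSeq windows on GRCh38.p14 at chr16:31202711-31203010 and chr11:104968525-104968824, both on the minus strand, and capitals mark CG dinucleotides.
PYCARD: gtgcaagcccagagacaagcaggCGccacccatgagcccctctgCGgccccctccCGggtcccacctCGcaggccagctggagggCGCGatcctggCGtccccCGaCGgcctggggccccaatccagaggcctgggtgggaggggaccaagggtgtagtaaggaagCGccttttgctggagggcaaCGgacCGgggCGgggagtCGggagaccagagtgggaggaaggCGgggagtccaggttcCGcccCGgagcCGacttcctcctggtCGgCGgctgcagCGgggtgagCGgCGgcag
CASP4: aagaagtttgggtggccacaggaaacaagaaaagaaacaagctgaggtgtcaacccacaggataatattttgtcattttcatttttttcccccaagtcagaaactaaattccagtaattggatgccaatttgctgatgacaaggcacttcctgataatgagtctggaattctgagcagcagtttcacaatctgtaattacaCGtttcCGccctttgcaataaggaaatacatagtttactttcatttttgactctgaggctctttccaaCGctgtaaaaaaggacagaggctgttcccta
The PYCARD window held 23 CG dinucleotides at a GC content of 72.0%, more than 64.2% of windows in the table. The CASP4 window held 3 at a GC content of 39.7%, more than 18.2% of windows, beside a median of 14.0 per window. No methylation was measured here. IL18, IL1RN, CASP1, GSDMB and GSDMD had no window shown.

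Both gasdermin genes were highest in DSS+polydatin. GSDMB (chromosome 17, 39904595 to 39919854, minus strand) had 645 counts in DSS+polydatin, 498 in DSS and 385 in control, or 37.0 CPM (34.2 to 40.0), 26.9 CPM (24.6 to 29.3) and 21.2 CPM (19.1 to 23.4). The 3 intervals did not overlap. GSDMB was at 1.27 times control in DSS (1.11 to 1.45), at 1.38 times DSS in DSS+polydatin (1.22 to 1.55) and at 1.74 times control in DSS+polydatin (1.54 to 1.98), and only the last was called.

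GSDMD, the pore-forming target of caspase-1 and caspase-4 (chromosome 8, 143553207 to 143563062, plus strand), had 441 counts in DSS+polydatin, 327 in DSS and 310 in control. That is 25.3 CPM (23.0 to 27.8), 17.6 CPM (15.8 to 19.7) and 17.1 CPM (15.2 to 19.1), so the DSS and control libraries overlapped and DSS+polydatin stood above both. Its ratio was 1.03 for DSS over control (0.882 to 1.21), 1.43 for DSS+polydatin over DSS (1.24 to 1.66) and 1.48 for DSS+polydatin over control (1.28 to 1.72), the last 2 just short of 1.5-fold. GSDMD has the highest GC content of the 9 genes, 64.8% in its longest transcript, and once the trend on GC content and length was taken out its ratio over control in DSS+polydatin was 1.06.

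Genes flanking the gasdermins, named after their values were seen, differed among themselves. ORMDL3, a regulator of sphingolipid synthesis 1187 bases from GSDMB, had 70.0 CPM in DSS+polydatin, 66.8 CPM in DSS and 42.4 CPM in control, so it was 1.57 times control in DSS (1.44 to 1.72) and 1.05 times DSS in DSS+polydatin (0.968 to 1.14). ZPBP2 on the other side had 0 counts. Beside GSDMD, MROH6 had 4.19, 2.75 and 2.15 CPM in DSS+polydatin, DSS and control, at 1.52 times DSS in DSS+polydatin (1.05 to 2.22). ZC3H3 had 11.2, 10.8 and 10.2 CPM with intervals of all its ratios including 1.

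**Figure D2:**
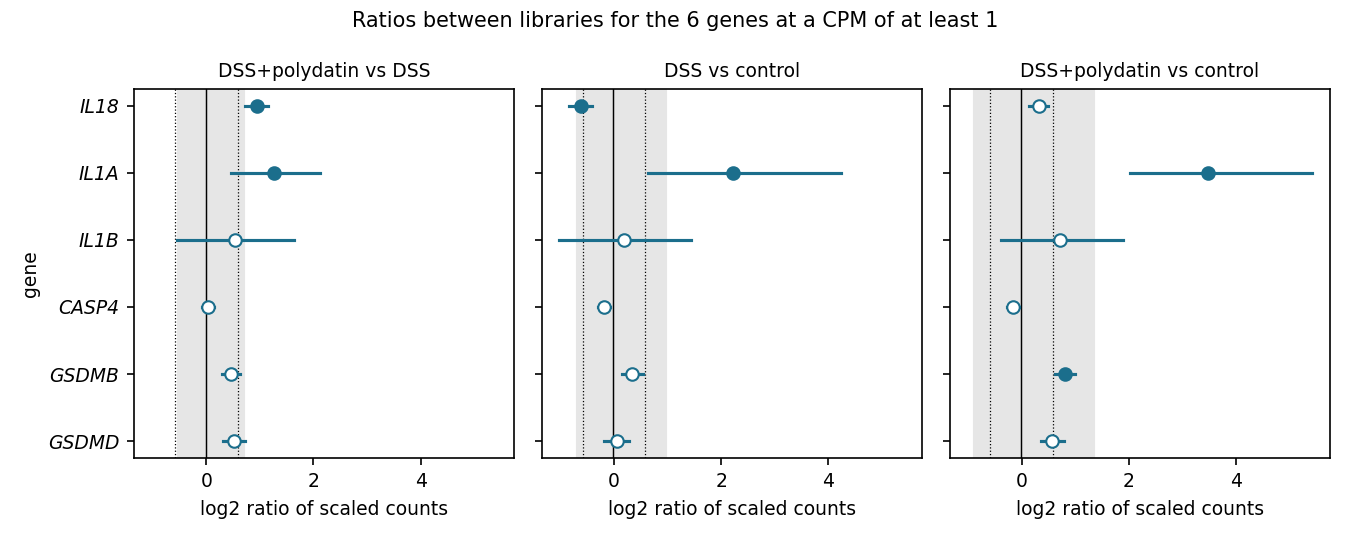
Log2 ratio of scaled counts for the 6 measured genes in 3 comparisons, with bars for the 95% exact counting interval; filled points are called at 1.5-fold (dotted lines), the grey band spans the 5th to 95th percentile of 14792 measured genes and the vertical line is their median. IL1A lies outside the band in all 3 panels, at 1.27, 2.22 and 3.48, and CASP4 lies at 0.03, −0.19 and −0.16, from the left panel to the right.

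Counted over the 6 measured of the 9 genes, DSS against control had 1 gene called higher, IL1A, and 1 called lower, IL18. Over all measured genes 9.45% were called higher and 5.81% lower in that comparison. In DSS+polydatin against DSS, 2 of the 6, IL18 and IL1A, were called higher and 0 lower, beside 5.39% higher and 2.60% lower of all measured genes. In DSS+polydatin against control, IL1A and GSDMB were called higher and 0 genes lower, beside 16.0% higher and 12.4% lower. With 3 genes not measured and 4 not called in each comparison, most of the set did not pass the threshold. Over the 6 measured genes the median log2 ratio was 0.12 in DSS against control, 0.52 in DSS+polydatin against DSS and 0.64 in DSS+polydatin against control, where all measured genes had medians of −0.01, −0.01 and −0.02. IL1B met the CPM filter only through DSS+polydatin, so its ratios in that library had to lie above 1. IL1A met it only through DSS+polydatin and DSS, so its ratios over control had to lie above 1. The medians and the IL1A calls against control are not free of that filter.

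Levels of different genes can be set beside each other only per length, here as CPM per kilobase of merged exons in GENCODE 29. Merged over all annotated transcripts, that length is 7256 bases for CASP4, 5905 for GSDMB, 5116 for GSDMD and 2628 for IL18. The order below depends on it, and which transcripts the cells made was not tested. Overlaps are of intervals that cover counting error only. In DSS+polydatin IL18 came first at 11.9, before CASP4 at 9.68, GSDMB at 6.26, GSDMD at 4.94, IL1A at 1.16 and IL1B at 0.352 CPM per kilobase, and no neighbours among these overlapped. In DSS CASP4 led at 9.49, followed by IL18 at 6.22, GSDMB at 4.55, GSDMD at 3.45, IL1A at 0.483 and IL1B at 0.244, of which IL1A and IL1B overlapped. In control the order was CASP4 at 10.8, IL18 at 9.58, GSDMB at 3.59, GSDMD at 3.34, IL1B at 0.213 and IL1A at 0.104. There, CASP4 and IL18, GSDMB and GSDMD, and IL1B and IL1A overlapped in pairs. IL1A therefore stood below IL1B in control and above it in the other libraries, with an interval apart from that of IL1B in DSS+polydatin only.

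Few well-expressed genes lay near IL18 in its pair of ratios and many near CASP4. Likeness was taken as the distance over the pair of log2 ratios DSS over control and DSS+polydatin over DSS, among 10326 protein-coding genes with a mean of at least 5 CPM. Within a distance of 0.1 there was 1 gene for IL18, 44 for GSDMD, 80 for GSDMB and 458 for CASP4. Nearest to IL18 were DGKA (12.3 CPM in DSS+polydatin, 6.85 in DSS and 10.5 in control), CDT1 and MSH5 (8.83, 4.64 and 6.33 CPM), nearest to GSDMB were AP5B1, SFXN5 and FAM241B, nearest to GSDMD were SDC4, FMNL3 and TLCD5, and nearest to CASP4 were KPNB1, BRMS1L and C1orf174. With 3 libraries such nearness is a description. The number of near genes largely restates how far a gene lies from the middle of all genes. IL18 lay above 6.40% of measured genes in DSS over control and above 97.4% in DSS+polydatin over DSS. CASP4 lay above 29.1% and 55.3%. Both ratios share the DSS library, and the counting intervals of the IL18 ratios are wider than the distance used.

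**Figure D3:**
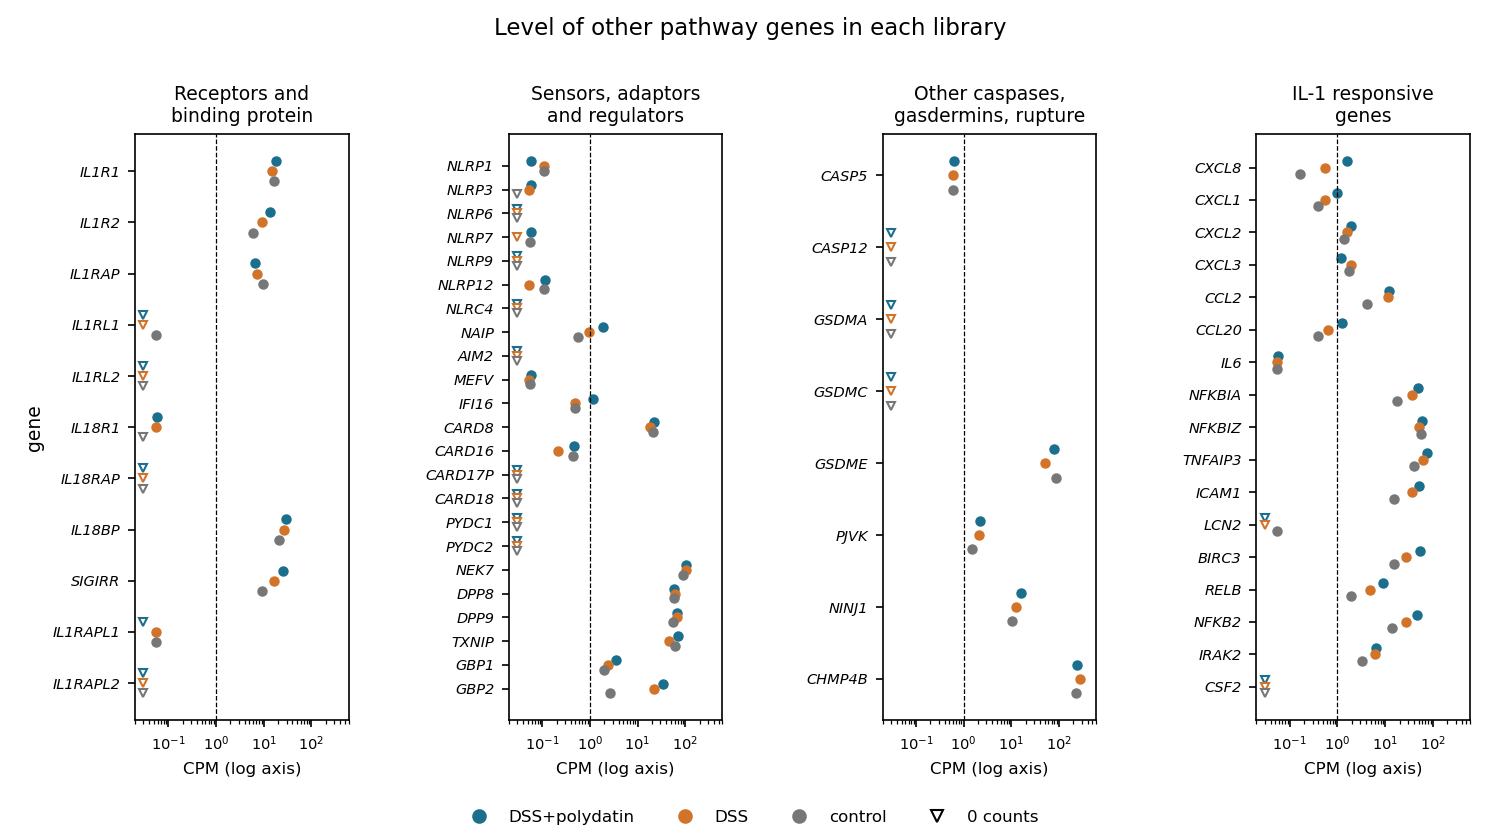
CPM on a log axis of receptors, inflammasome sensors and regulators, other caspases and gasdermins, and IL-1 responsive genes in DSS+polydatin (upper point of each trio), DSS and control (lower point), 1 library per point; open triangles mark 0 counts and the dashed line a CPM of 1. SIGIRR, GBP2 and BIRC3 are highest in DSS+polydatin, at 25.6, 33.9 and 53.3 CPM, while NLRC4, AIM2, CASP12, GSDMA and GSDMC have 0 counts in every library.

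Of 86 other genes of these pathways 50 were measured, 36 stayed under 20 counts in every library and 20 had 0 counts throughout. In DSS against control 11 of the 50 were called higher and 1 lower (22.0% and 2.00%, median log2 ratio 0.22). In DSS+polydatin against DSS 12 were called higher and 0 lower (24.0%, median 0.17), and in DSS+polydatin against control 20 were higher and 0 lower (40.0%, median 0.27). These shares are to be read beside the percentages of all measured genes given above. NAIP, IFI16 and CXCL8, called higher in both DSS+polydatin comparisons, passed the CPM filter only through the DSS+polydatin library. CCL20, called higher against control, passed it in the same way. The direction of these calls was thus fixed by the filter. The lists were also chosen with earlier results of these data known.

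None of the 7 other IL-1 family ligands was measured. IL33, IL36A, IL36B and IL1F10 had 0 counts in all libraries, IL36G had 2, 4 and 2 counts, IL37 had 6, 5 and 4, and IL36RN, the antagonist of the IL-36 receptor, had 4, 4 and 8 counts in DSS+polydatin, DSS and control. Receptor genes for IL-1 were present while those for IL-18 were at or near 0. IL1R1, the signalling receptor, had 18.3 CPM in DSS+polydatin, 15.0 CPM in DSS and 16.7 CPM in control, and its partner IL1RAP had 6.65, 7.12 and 9.80 CPM. IL18R1 had 1, 1 and 0 counts and IL18RAP had 0 in every library. IL18BP, the secreted protein that neutralises IL-18, had 29.5, 26.0 and 20.8 CPM.

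Both receptor-side genes that were called encode proteins that restrain IL-1 signalling. SIGIRR, an inhibitory receptor of the family, had 446 counts in DSS+polydatin, 304 in DSS and 165 in control, at 1.81 times control in DSS (1.49 to 2.20) and 1.56 times DSS in DSS+polydatin (1.34 to 1.81). IL1R2, the decoy receptor, had 240, 167 and 109 counts, at 1.5 times control in DSS (1.17 to 1.93) and 1.53 times DSS in DSS+polydatin (1.25 to 1.87). Against control, DSS+polydatin was at 2.81 times for SIGIRR (2.35 to 3.39) and 2.29 times for IL1R2 (1.82 to 2.90). Of 11 genes in the receptor list 5 were measured, and these were the 2 called in each comparison. Over all measured genes 9.45% were called higher in DSS against control, 5.39% in DSS+polydatin against DSS and 16.0% in DSS+polydatin against control. The IL1R2 ratio of DSS over control lay at the threshold.

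Most genes for inflammasome sensors were scarcely detected. NLRP3 had 1 count in DSS+polydatin, 1 in DSS and 0 in control, NLRP1 had 1, 2 and 2 counts, MEFV had 1 in each, and NLRP6, NLRP9, NLRC4 and AIM2 had 0 throughout. Of 23 genes in the sensor and regulator list 9 were measured, with 1 called higher in DSS against control, 4 in DSS+polydatin against DSS and 4 in DSS+polydatin against control, and 0 lower in each, beside 9.45%, 5.39% and 16.0% of all measured genes called higher. NAIP and IFI16, which are 2 of the 4 called in each DSS+polydatin comparison, passed the CPM filter only through the DSS+polydatin library, where they are high. The sensor CARD8, which the proteases DPP8 and DPP9 hold inactive, had 22.2, 18.0 and 21.5 CPM, and NEK7, a partner of NLRP3, had 104, 105 and 90.6 CPM. GBP2, an interferon-induced GTPase that coats bacteria and helps caspase-4 reach lipopolysaccharide, had 591 counts in DSS+polydatin, 409 in DSS and 49 in control, at 8.18 times control in DSS (6.07 to 11.2) and 1.54 times DSS in DSS+polydatin (1.35 to 1.75).

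The other calls in that list were in genes of lower level or in 1 or 2 comparisons. TXNIP, a thioredoxin-binding protein, had 69.6 CPM in DSS+polydatin, 45.1 CPM in DSS and 60.2 CPM in control, at 1.54 times DSS in DSS+polydatin (1.41 to 1.69). NAIP, a flagellin sensor with near-identical copies whose reads are uncertain, had 33, 18 and 10 counts, at 1.95 times DSS (1.07 to 3.67) and 3.44 times control (1.65 to 7.82) in DSS+polydatin. The DNA sensor IFI16 had 20, 9 and 9 counts, at 2.36 times DSS in DSS+polydatin (1.03 to 5.89). GBP1 was at 1.76 times control in DSS+polydatin (1.15 to 2.74), with 3.50 against 1.98 CPM.

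GSDME, another pore-forming gasdermin, was lowest in DSS, as IL18 was. It had 1334 counts in DSS+polydatin, 942 in DSS and 1599 in control. GSDME was at 0.577 times control in DSS (0.532 to 0.626) and at 1.5 times DSS in DSS+polydatin (1.38 to 1.64). It was the 1 pathway gene called lower in DSS against control. NINJ1, which ruptures the plasma membrane late in lytic death, was at 1.54 times control in DSS+polydatin (1.28 to 1.86), with 15.9 against 10.4 CPM. CASP8, which can cut gasdermin D, had 60.2 CPM in DSS+polydatin, 71.6 CPM in DSS and 66.4 CPM in control and was not called in any comparison.

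Genes that carry the signal from the IL-1 receptor are read beside the 9.45%, 5.39% and 16.0% of all measured genes called higher in DSS against control, in DSS+polydatin against DSS and in DSS+polydatin against control. Of 15 measured in the signalling list 1, IRAK2, was called in DSS against control at 1.85 times (1.34 to 2.57), and 1, IKBKG, in DSS+polydatin against DSS at 1.66 times (1.28 to 2.17). Reads of IKBKG, the regulatory subunit of the IκB kinase, are uncertain because a near-identical pseudogene exists. In DSS+polydatin against control 4 were called higher, namely IKBKG at 2.17 times (1.63 to 2.91), IRAK2 at 1.94 times (1.41 to 2.71), TAB3 at 1.55 times (1.46 to 1.65) and TOLLIP, an inhibitor of the pathway, at 1.52 times (1.35 to 1.70). The median log2 ratio of the list was 0.11 in DSS against control, 0.04 in DSS+polydatin against DSS and 0.07 in DSS+polydatin against control.

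Among 13 measured genes that IL-1 is known to induce, 8 were called higher and 0 lower in DSS against control (median log2 ratio 0.88), 4 higher and 0 lower in DSS+polydatin against DSS (median 0.43) and 10 higher and 0 lower in DSS+polydatin against control (median 1.56). Over all measured genes 9.45%, 5.39% and 16.0% were called higher in the same comparisons. CXCL8 and CCL20 passed the CPM filter only through the DSS+polydatin library, so their counts there had to be the higher ones. These genes also answer to other signals that reach NF-κB. RELB, an NF-κB subunit, had 155 counts in DSS+polydatin, 89 in DSS and 35 in control, at 4.61 times control in DSS+polydatin (3.18 to 6.86). The neutrophil chemokine gene CXCL8 had 28, 10 and 3 counts, at 2.97 times DSS in DSS+polydatin (1.4 to 6.86). ICAM1, an adhesion molecule for leukocytes, had 51.5, 35.7 and 15.1 CPM, and NFKBIA, the inhibitor IκBα, had 49.3, 36.6 and 18.1 CPM. CCL2, a monocyte chemokine, had 213, 216 and 75 counts, at 2.82 times control in DSS (2.16 to 3.72). BIRC3, an inhibitor of apoptosis, was at 2.00 times DSS in DSS+polydatin (1.79 to 2.23), and NFKB2, a precursor of an NF-κB subunit, at 1.74 times (1.55 to 1.94). IL6 had 1 count in every library and CSF2 had 0.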

How the data were processed

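Total RNA of 3 Caco-2 cultures, 1 library per group, was sequenced. The submitters' processing notes name HISAT2 and GRCh38 for the alignment. How reads were counted, with which annotation and strand setting, is, in the sources used here, not given. The authors deposited raw counts per Ensembl gene, whole numbers with no normalization. The 9 genes and the pathway lists were chosen with earlier results of these data known.

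Symbols were matched for 60463 of 60664 identifiers; 2 of 134 list genes were not matched and are not analysed here. Coordinates, exon lengths and overlaps came from GENCODE 29. Scaling used TMM factors (edgeR 4.0.16, R 4.3.3) of 1.05 for DSS+polydatin, 0.984 for DSS and 0.971 for control, so a CPM of 1 was 17.4, 18.5 and 18.2 counts. Ratios of scaled counts carry exact 95% Clopper-Pearson intervals, and levels exact Poisson intervals, from scipy 1.17.1 in Python 3.11.15; reads are not independent molecules. Where a count was 0, 0.5 was added to both. The ratio script was tested on simulated counts. All 9 genes are named, and of each list up to 4 called genes per comparison, taking first those whose interval lay farthest from 1, or, where none was called, the 2 most abundant; some that the rule takes are not reported here; flanking genes and all other named genes were chosen after their values were seen. Alternatives were scaling by total counts or by size factors of DESeq2 1.42.0, other filters, thinning, a 2-fold rule, 2 added counts and, added after the data were seen, removal of a GC content and length trend (statsmodels 0.14.6). Figures used matplotlib 3.10.9.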

Additional observations from a re-analysis of the deposited data

How the results depend on the processing

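For the 9 genes, 21 ratios could be recomputed, and 16 kept their call under every alternative applied to them. The alternatives were other scaling, thinning, 2 added counts and the removal of a GC content and length trend. The trend was not run for the 3 ratios of CASP1. With 2 added counts only the ratio was recomputed. The interval stayed that of the original counts, so whether it excluded 1 could not change. None of the called ratios changed direction. With the trend removed, the count of genes called lower in DSS against control was 0 in place of 1, since the IL18 log2 ratio was −0.45 in place of −0.62; IL18 was then called higher in DSS+polydatin against control, at 0.59 in place of 0.32. Total-count scaling called GSDMD higher in DSS+polydatin against DSS (0.61) and against control (0.67), and CASP1, which stayed under the CPM filter, against DSS (2.98). With a CPM of at least 10, which leaves out IL1A, the genes called higher numbered 0 in DSS against control, 1 in DSS+polydatin against DSS and 1 in DSS+polydatin against control, in place of 1, 2 and 2. That filter kept 4 of the 9 genes, and 7.43%, 2.35% and 12.6% of all genes passing it were called higher. A 2-fold rule gave 0 lower in DSS against control, and 1 higher, IL1A, in each DSS+polydatin comparison. Over all measured genes it called 1.76% lower in DSS against control. It called 1.94% higher in DSS+polydatin against DSS and 8.53% against control.

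For the pathway genes, the 2-fold rule gave 5 higher and 0 lower in DSS against control, in place of 11 and 1, and 2 higher in DSS+polydatin against DSS, in place of 12. Over all measured genes that rule called 4.24% higher and 1.76% lower in DSS against control, and 1.94% higher in DSS+polydatin against DSS. A CPM of at least 10 gave 7 higher in DSS+polydatin against DSS and 12 against control, in place of 12 and 20. These are out of 38 genes in place of 50. Over all genes passing that filter 2.35% and 12.6% were called higher, in place of 5.39% and 16.0%. DESeq2 size factors and thinning each gave 1 of 50 lower in DSS+polydatin against control, in place of 0. Over all genes measured under these 2 settings 13.7% and 12.6% were called lower, in place of 12.4%. Except where the alternative is itself a stricter rule or filter, the cause was not tested. Total-count scaling moved the median log2 ratio of all measured genes to 0.08 in DSS+polydatin against DSS and 0.09 in DSS+polydatin against control, in place of −0.01 and −0.02. No paired analysis was possible because each group has 1 library. Depth limits IL1A, IL1B, IL1RN, CASP1 and PYCARD, each under 20 counts in at least 1 library.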
